A study of Mus musculus with 6 samples.

Results

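The BTB zinc finger genes encode transcription factors that pair an N-terminal BTB domain with a run of zinc fingers. The fingers read DNA, and the BTB domain lets the proteins pair with each other and recruit corepressors such as the BCoR complex, so most members are known as repressors. In the developing forebrain the family is known for Zbtb20, a determinant of hippocampal pyramidal neurons, for Zbtb18, needed for cortical neuron differentiation, and for Bcl6, which promotes neurogenesis by silencing progenitor genes. The members described here are all genes whose only symbol in the platform annotation is Zbtb followed by a number and, for some, a letter, together with Bcl6, Bcl6b, Patz1, Hic1 and Hic2. They came to 44 of 18193 genes and were covered by 95 of 34945 probe sets with a single gene symbol. Each gene was read on its brightest probe set, that with the highest mean signal. The other probe sets of the 29 members with several were fitted too, and are given for some of these members.

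The arrays compared mice of strain C57BL/6 on postnatal day 1, 3 wildtype pools and 3 pools of D6/Zbtb20S transgenic littermates, with tissue of 7 animals in each pool. The tissue was retrosplenial cortex dissected together with the subiculum, which in the transgenic animals is labelled as transformed to CA1, a hippocampal field. The transgene carries Zbtb20 itself, so a member of the family was supplied from outside in 1 of the groups. D6 is known as an enhancer active in the developing neocortex and hippocampus, and which cells carried the transgene in these pools is not given in the sources used here. Values are log2 signals, so a difference of 1 is 2-fold, and ± after a difference is its standard error, from the limma fit over all genes or, where a second probe set of a gene is described, from that over all probe sets. A gene was called higher or lower at a Benjamini-Hochberg adjusted p under 0.05. Whether the pools are biologically separate is not stated beyond the 7 animals of each, so the p-values cover the spread of these pools, which may be technical.

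Markers of the dissected tissue were present in wildtype arrays. Of 6 measured markers of glutamatergic neurons, all 6 lay above the array median on at least 3 arrays, counted over both genotypes. The same held for 6 of 7 markers of the retrosplenial cortex and subiculum. Among all these markers only Scn4b had a wildtype mean under the array median, though Slc17a7 lay under it on wildtype replicate 1. In transgenic tissue 6 of the 7 retrosplenial and subiculum markers were called lower (3.64% of all genes were) and 0 higher (4.06% of all genes were). Arrays of a genotype resembled each other more (Pearson's r over genes from 0.9943 to 0.9972) than arrays of different genotypes (0.9884 to 0.9914). Wildtype replicate 3 stood apart in its Zbtb20 signal, as described next, so results on Zbtb20, Bcl6 and a Zbtb4 probe set are also given without it.

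Zbtb20 was examined first, since it is the gene of the transgene. Of its 9 probe sets only 1422064_a_at was called, 5.04-fold higher in transgenic tissue (2.33 ± 0.37, limma adjusted p = 0.00904 over all 45037 probe sets, of which 5.52% were called). On this set the wildtype arrays read 6.44, 5.84 and 7.64 in replicates 1, 2 and 3, and the transgenic arrays 8.88, 9.10 and 8.94. The groups did not overlap, and wildtype replicate 3 was the highest of its group. The second set whose groups did not overlap, 1437066_at, read 5.46, 4.72 and 6.15 in wildtype and 6.28, 6.22 and 6.39 in transgenic tissue, a difference of 0.85 ± 0.30 that was not called (adjusted p = 0.169 over all probe sets). The set that stands for the gene, 1437598_at, read 8.15, 7.90 and 8.98 against 8.11, 8.26 and 8.25. On that set the groups overlapped and the difference was -0.14 ± 0.23 (adjusted p = 0.796 over all genes). Its wildtype SD of 0.57 was larger than that of 99.9% of genes, while its transgenic SD was 0.09.

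With wildtype replicate 3 left out, a choice made after its Zbtb20 signal was seen, 4 of the 9 Zbtb20 probe sets were higher in transgenic tissue. These were 1422064_a_at (7.13-fold), 1437066_at (2.31-fold), 1451577_at (2.28-fold) and 1438443_at (1.64-fold), with limma adjusted p from 9.24e-05 to 0.00852 over all probe sets. Because the array was set aside for its level of this same gene, these calls add no independent evidence. The other 5 sets stayed uncalled, with differences from -0.06 to 0.46. The probe sets of this gene thus did not give a single answer. Where each set lies along the Zbtb20 transcripts was not used here, and a set outside the transgene does not check a label.

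**Figure D1:**
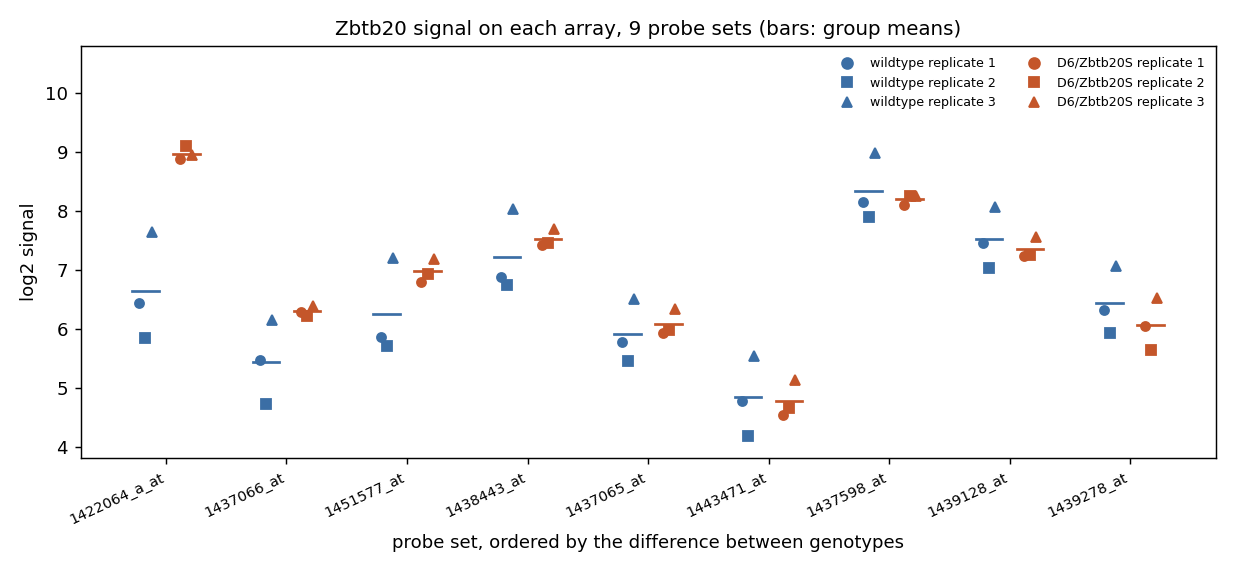
Log2 signal of Zbtb20 (vertical axis) on each array for its 9 probe sets (horizontal axis), with wildtype arrays in blue, D6/Zbtb20S arrays in orange, a symbol for each replicate and a bar at each group mean. Wildtype replicate 3 (blue triangle) is the highest wildtype array on all 9 sets, and the transgenic arrays lie above all wildtype arrays on 1422064_a_at and 1437066_at.

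Among all 44 members, 2 were called higher in transgenic tissue, Bcl6 and Zbtb38, and 1 was called lower, Zbtb10. That is 6.82% of members, against 7.71% of all 18193 genes. By direction, 4.55% of members were higher against 4.06% of all genes, and 2.27% lower against 3.64%. The share of called members was thus near the background. At an unadjusted p under 0.05 there were 8 members (18.2%), against 20.3% of all genes. Bcl6 was the only member called with a change of at least 2-fold (2.27% of members, against 1.45% of all genes).

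Most of the family lay within a narrow range. Of the 44 members, 42 (95.5%) differed by less than 0.35 on the log2 scale, and 33 (75.0%) by less than 0.2, against 90.0% and 76.0% of all genes. Of the 41 members that were not called, 38 had a 95% interval for their fold that stayed within 1.5-fold in both directions. The exceptions were Zbtb20, Zbtb12 and Zbtb21, whose intervals reached up to 1.57-fold. These intervals come from the moderated limma fit of 3 and 3 arrays, each gene on its own. In sign, 27 members (61.4%) were above 0 and 17 below, against 45.9% of all genes above 0. The median difference was 0.05 for members and -0.02 for all genes, and both kept their sign with equal array medians and with quantile normalization. Groups did not overlap for 11 members (25%, against 26.1% of all genes), with the transgenic arrays above for 9 (20.5%, against 12.9%) and below for 2 (4.55%, against 13.2%). For 5 members (Zbtb3, Zbtb32, Zbtb37, Zbtb7a and Zbtb7c, 11.4%, against 34.4% of all genes) both groups averaged less than the array median, a dim signal.

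**Figure D2:**
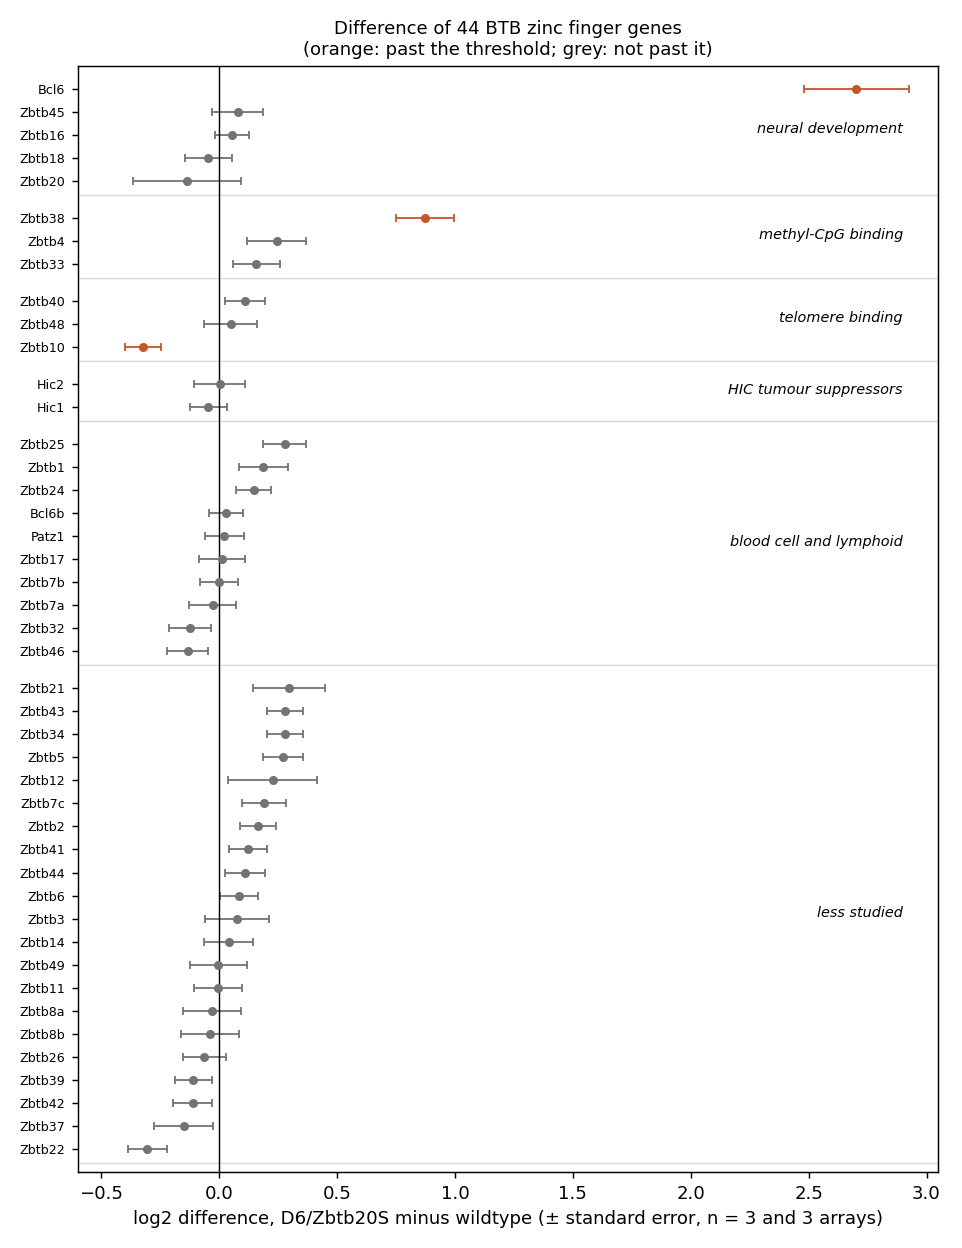
Log2 difference between D6/Zbtb20S and wildtype (horizontal axis) for each of the 44 members (rows, grouped by role), as points with the standard error of the limma fit, n = 3 and 3 arrays. Orange points passed the adjusted p threshold (Bcl6 and Zbtb38 above 0, Zbtb10 below), and the other 41 lie between -0.30 and 0.30.

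Bcl6 changed most. Bcl6 is a repressor of germinal centre B cells that in the embryonic cortex moves progenitors towards neuronal differentiation. On probe set 1421818_at it read 4.76, 5.26 and 5.84 in wildtype replicates 1, 2 and 3, and 8.16, 7.905 and 7.90 in the transgenic ones. Every transgenic array lay far above every wildtype array. The mean rose from 5.29 ± 0.54 (SD, n = 3) to 7.99 ± 0.15 (SD, n = 3), which is 6.51-fold (2.70 ± 0.22, limma adjusted p = 7.25e-05), with a 95% interval from 4.59-fold to 9.19-fold.

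The second Bcl6 probe set, 1450381_a_at, rose too, by 1.51-fold. It read 3.72, 3.51 and 3.49 in wildtype and 3.98, 4.11 and 4.42 in transgenic tissue (0.59 ± 0.12, adjusted p = 0.029 over all probe sets). Its groups did not overlap, and its wildtype mean lay under the array median. Both sets thus pointed the same way, with sizes that differed. Without wildtype replicate 3 the first set was at 2.98 (limma adjusted p = 6.34e-05) and the second lost its call (adjusted p = 0.0617), both over all probe sets. With the mean of its sets Bcl6 was at 1.65 (adjusted p = 2.74e-05), and the ordinary linear model, which borrows no spread from other genes, left it uncalled (adjusted p = 0.0598).

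The wildtype arrays themselves differed in Bcl6. Their SD of 0.54 was larger than that of 99.8% of genes, and wildtype replicate 3 lay 0.83 above the mean of the other wildtype arrays. Among the members only Zbtb20 had a larger wildtype SD, and there the same array lay 0.96 above the others. Over the whole family wildtype replicate 3 was the highest wildtype array for 16 of 44 members (36.4%), against 35.9% of all genes, a share near that of all genes. The 3′-minus-5′ signal of the Gapdh control was -0.33, -0.03 and 0.30 in wildtype replicates 1, 2 and 3 and -0.0225 to -0.00185 in transgenic arrays, and its part in the wildtype spread was not tested.

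Bcl6 is also a gene of immune cells, so their markers are given beside it. Of 6 measured lymphocyte markers 0 were called (7.71% of all genes were), and 5 lay under the array median on all 6 arrays. Their mean signal was 2.77 to 2.83 in wildtype and 2.73 to 2.91 in transgenic arrays. Ptprc, which microglia express too, was the one whose groups were apart (0.48 ± 0.14, adjusted p = 0.0688). Of 11 measured microglial markers all 11 had positive differences (45.9% of all genes had) and 4 were called higher (4.06% of all genes were). These 4 were Cx3cr1 (0.87 ± 0.16), Tyrobp (0.69 ± 0.11), Fcrls (0.55 ± 0.13) and Ctss (0.49 ± 0.09). The mean signal of the 11 markers was 5.17 to 5.31 in wildtype and 5.56 to 5.84 in transgenic arrays. No microglial marker in the list rose by more than 0.87, against 2.70 for Bcl6, and their part in the Bcl6 difference was not tested. In bulk tissue, a change in the number of cells of a type and a change in RNA per cell cannot be told apart.

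The sequences before the Bcl6 start sites are shown because Bcl6 was the member that changed most and is known to bind, and in lymphocytes to repress, its own gene. They are from RefSeq (GRCm38.p6), 250 bases before each of its 2 annotated starts, written 5′ to 3′ on the strand of the gene, and capitals mark matches to TTCNNNGAA, the core that Bcl6 shares with STAT factors. The motif reads the same on both strands.
Bcl6 start 1, chr16:23988853-23989102, minus strand: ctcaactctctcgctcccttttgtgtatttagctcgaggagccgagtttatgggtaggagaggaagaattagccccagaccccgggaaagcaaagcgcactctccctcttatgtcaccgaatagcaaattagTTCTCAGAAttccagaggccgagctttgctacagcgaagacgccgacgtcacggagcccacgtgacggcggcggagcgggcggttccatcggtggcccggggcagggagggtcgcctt
Bcl6 start 2, chr16:23981284-23981533, minus strand: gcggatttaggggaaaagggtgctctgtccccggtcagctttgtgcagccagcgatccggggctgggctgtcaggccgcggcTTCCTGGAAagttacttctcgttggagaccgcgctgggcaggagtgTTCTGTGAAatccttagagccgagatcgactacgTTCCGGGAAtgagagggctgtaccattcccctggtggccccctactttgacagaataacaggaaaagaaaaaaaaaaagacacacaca

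The window before the first start held 1 match and that before the second held 3, of which TTCCTGGAA lay 168 to 160 bases before the start. Windows of 300 bases (250 before and 50 after a start) were at hand for 38 of the 44 members, 54 windows in all, and 3 of them held the motif, both of Bcl6 and the window of Zbtb20. Of all 32851 windows 8.30% held it. The stricter form TTCCTAGAA was in 0 of the 54 and in 0.411% of all windows. A match is a stretch of letters and says nothing on binding in this tissue, and which start was used here was not measured.

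The other members with known roles in neural development stayed close to their wildtype level. Zbtb18, also called RP58, read 11.10, 11.30 and 11.24 in wildtype and 11.26, 11.27 and 10.99 in transgenic arrays, with overlapping groups (-0.05 ± 0.10, adjusted p = 0.853). Its 95% interval ran from 0.828-fold to 1.13-fold. Zbtb45, known from glial differentiation, read 5.36, 5.47 and 5.59 against 5.55, 5.37 and 5.74 and overlapped too (0.08 ± 0.11, adjusted p = 0.749). Zbtb16, or PLZF, a factor of undifferentiated progenitors, read 6.04, 6.01 and 6.06 against 6.13, 6.06 and 6.08 (0.05 ± 0.07, adjusted p = 0.744). Its transgenic arrays lay just above the wildtype ones, on a probe set of the _x_at type, which can match several transcripts. On 1439163_at, another Zbtb16 set, the groups were also apart, at 5.15, 5.37 and 5.46 against 5.55, 5.65 and 5.77 (0.33 ± 0.11, adjusted p = 0.132 over all probe sets). The third Zbtb16 set overlapped.

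Zbtb38 was the second member called higher. With Zbtb33 (Kaiso) and Zbtb4 it forms the branch of the family that binds methylated DNA. On 1437650_at it read 4.71, 5.16 and 5.002 in wildtype and 5.67, 5.86 and 5.96 in transgenic arrays, which did not overlap. The difference was 1.83-fold (0.87 ± 0.12, limma adjusted p = 0.00211), and the call held whichever array was left out (adjusted p from 0.00328 to 0.0133). The other Zbtb38 probe sets did not follow. On 1434687_at wildtype arrays read 5.24, 5.51 and 5.76 and transgenic arrays 5.30, 5.28 and 5.12, a difference of -0.27 ± 0.13 that was not called (adjusted p = 0.341 over all probe sets). The third set, 1438269_at, was at 0.05, under the array median. As the mean of its sets Zbtb38 was at 0.22 and was not called (adjusted p = 0.17), and the ordinary linear model did not call it either (adjusted p = 0.112). The Zbtb38 result is therefore that of 1 probe set of 3. Over all arrays 1437650_at averaged 5.39 and 1434687_at 5.37, but in wildtype 1434687_at was the brighter (5.50 against 4.96). The set that stands for Zbtb38 was thus picked through its transgenic signal. The fits with an array left out kept this set, so they do not check that choice.

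Neither relative of Zbtb38 was called. Zbtb33 was at 0.16 ± 0.10 (7.66, 7.70 and 7.79 against 8.02, 7.91 and 7.70, adjusted p = 0.42). Zbtb4 was at 0.24 ± 0.12 (6.06, 6.40 and 6.52 against 6.50, 6.50 and 6.72, adjusted p = 0.316). Both had overlapping groups. Of the 4 Zbtb4 sets, 3 had positive differences, and on 1457293_at the groups were apart, at 3.47, 4.18 and 4.26 against 4.51, 4.73 and 4.70 (0.67 ± 0.19, adjusted p = 0.0948 over all probe sets). That set passed when wildtype replicate 3 was left out (limma adjusted p = 0.0433 over all probe sets, of which 6.4% were then called). The array was left out of this fit after its Zbtb20 signal was seen, so the pass adds no independent evidence.

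**Figure D3:**
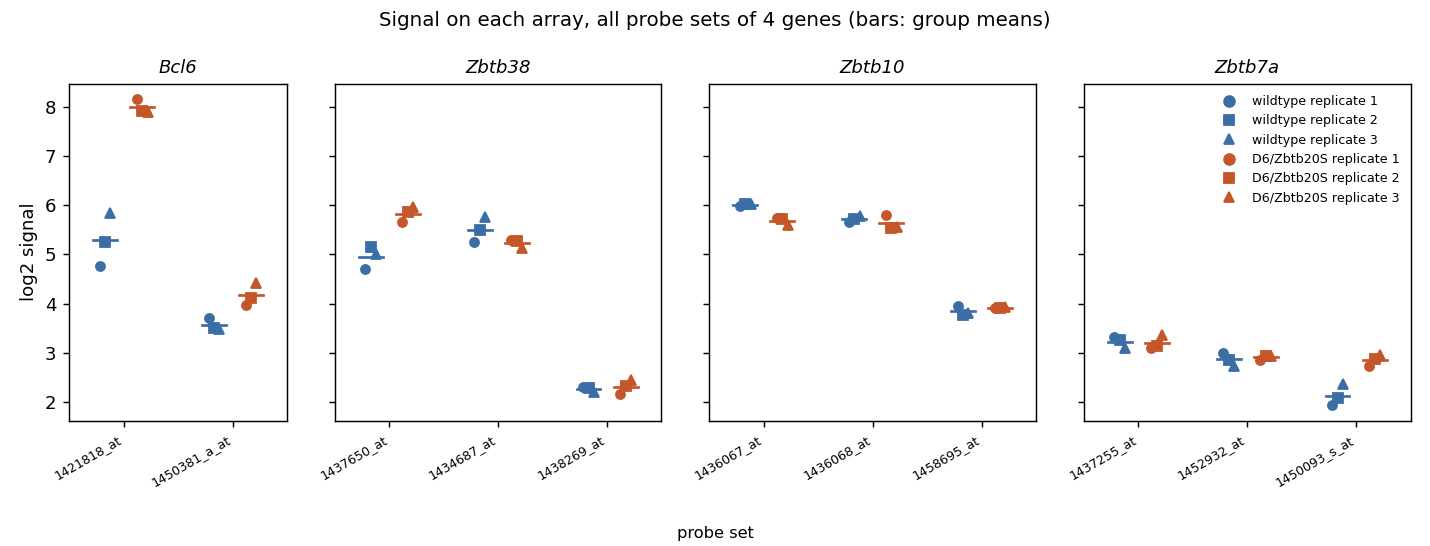
Log2 signal (vertical axis) on each array for all probe sets (horizontal axis) of Bcl6, Zbtb38, Zbtb10 and Zbtb7a, with wildtype in blue, D6/Zbtb20S in orange, a symbol for each replicate and a bar at each group mean. Both Bcl6 sets are higher in transgenic arrays, whereas for the other 3 genes only 1 set of 3 separates the groups: 1437650_at of Zbtb38, 1436067_at of Zbtb10 and 1450093_s_at of Zbtb7a.

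Zbtb10, the member called lower, is known with Zbtb48 (TZAP) and Zbtb40 from telomeric repeats. On 1436067_at it read 5.99, 6.02 and 6.03 in wildtype and 5.75, 5.72 and 5.60 in transgenic arrays, with no overlap. The fall was 1.25-fold (-0.32 ± 0.08, limma adjusted p = 0.0334). It was the least stable of the calls: it was lost whichever array was dropped (adjusted p from 0.0626 to 0.128). Its other sets were at -0.08 and 0.07, and 1436067_at itself missed the threshold over all probe sets (adjusted p = 0.0521). Zbtb48 (0.05 ± 0.11) and Zbtb40 (0.11 ± 0.09) were not called and their groups overlapped.

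The HIC genes, tumour suppressors named for hypermethylation in cancer, were the flattest group. Hic1 read 5.02, 5.05 and 5.11 in wildtype and 5.09, 4.94 and 5.01 in transgenic arrays (-0.05 ± 0.08, adjusted p = 0.806). Hic2 was at 0.00191 ± 0.107 (adjusted p = 0.996), with all of its 3 sets at or below 0.12. The groups overlapped for both genes.

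Bcl6, called higher and also a gene of immune cells, was placed in the neural group and is not counted here. Of the other 10 members best known from blood and lymphoid cells, 0 were called by limma (7.71% of all genes were). Positive differences were seen for 6 of them (45.9% of all genes had one). At an unadjusted p under 0.05 only Zbtb25 passed, against 20.3% of all genes. Differences ran from -0.13 for Zbtb46, a factor of classical dendritic cells, to 0.28 for Zbtb25. Zbtb25 had groups apart, at 5.10, 4.996 and 4.88 against 5.25, 5.18 and 5.39 (0.28 ± 0.09, adjusted p = 0.112), and its other set was at -0.04. Zbtb24, the gene of an immunodeficiency syndrome with centromere instability, was apart by a smaller step (0.15 ± 0.07, adjusted p = 0.314). The other Zbtb24 set was at -0.09. Bcl6b, the closest relative of Bcl6, read 4.45, 4.50 and 4.52 against 4.49, 4.54 and 4.53 (0.03 ± 0.07, adjusted p = 0.876), with a 95% interval from 0.910-fold to 1.14-fold. The interval of Bcl6b thus lay far under that of Bcl6. Zbtb17 (Miz1, a partner of Myc), Patz1 and Zbtb7b (ThPOK, a factor of helper T cells) were all within 0.03 of 0 on their brightest sets. The dimmer set of Zbtb7b was at -0.26 ± 0.17, with overlapping groups (adjusted p = 0.496 over all probe sets).

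Zbtb7a, also called LRF, depended on the probe set. The set that stands for it was at -0.03 ± 0.10 (adjusted p = 0.914). Its dimmest set, 1450093_s_at, was called higher, at 1.94, 2.08 and 2.37 in wildtype against 2.73, 2.87 and 2.96 in transgenic arrays (0.72 ± 0.12, adjusted p = 0.0121 over all probe sets). The groups were apart on that set, which is of the _s_at type that can match several transcripts. All 3 Zbtb7a sets lay under the array median in both groups. Beside Bcl6, Zbtb38 and Zbtb20, it was the only member with a called probe set when all probe sets were tested.

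Of the 21 less studied members 0 were called by limma, with differences from -0.30 (Zbtb22) to 0.30 (Zbtb21). The other Zbtb21 sets were at -0.18 and -0.04. At an unadjusted p under 0.05, 4 passed, when 20.3% of all genes did, a share near theirs. Zbtb22 read 6.53, 6.46 and 6.34 in wildtype and 6.18, 6.12 and 6.11 in transgenic arrays (-0.30 ± 0.08, adjusted p = 0.0537). Zbtb43 read 6.81, 6.90 and 6.89 against 7.19, 7.11 and 7.13 (0.28 ± 0.08, adjusted p = 0.0544). Zbtb34 read 6.78, 6.93 and 6.90 against 7.15, 7.13 and 7.16 (0.28 ± 0.08, adjusted p = 0.0613). In all of them the groups were apart, as they also were for Zbtb5 (0.27 ± 0.08, adjusted p = 0.088) and Zbtb2 (0.16 ± 0.08, adjusted p = 0.259). Zbtb22 passed in 5 of 14 alternative analyses, Zbtb43 in 3, Zbtb34 in 2 and Zbtb5 in 1. The second sets of Zbtb43 and Zbtb34 were at -0.04 and 0.03, under the array median, so these steps too were read on 1 set each. The largest spread among less studied members was that of Zbtb12, at 5.09, 4.78 and 4.26 in wildtype and 4.80, 5.17 and 4.85 in transgenic arrays, with overlapping groups.

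The proteins that BTB zinc finger factors work through were read on 28 genes, among them histone deacetylases, the SIN3, NuRD and BCoR subunits and Cul3. Of these, 0 rose and 1 fell (3.57%, against 7.71% of all genes), with a median difference of -0.05. All 28 were bright, that is above the array median on at least 3 arrays. When bright genes were fitted alone, 11.9% of them were called. The gene that fell was Mta3, the NuRD subunit through which Bcl6 represses in B cells. It read 5.35, 5.46 and 5.26 in wildtype and 4.98, 4.92 and 4.88 in transgenic arrays, with groups apart (-0.44 ± 0.08, limma adjusted p = 0.0108). Its other sets were at -0.23 and -0.26 and were not called, and it missed the threshold without wildtype replicate 2 (adjusted p = 0.0627). Bcor (0.18 ± 0.10), Hdac3 (-0.05 ± 0.07) and Sirt1 (-0.07 ± 0.10), partners of Bcl6 in repression, were not called.

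Of 18 genes that Bcl6 is known to repress in cortical progenitors, 4 rose, 1 fell and 13 were not called, with a median of 0.16. That is 27.8% called, against 7.71% of all genes and 11.9% of bright ones, and 17 of the 18 were bright. This list and those below were chosen with earlier results of these data known. The Notch ligand gene Dll1 was 2.41-fold higher, at 6.12, 5.81 and 6.13 in wildtype and 7.27, 7.20 and 7.39 in transgenic arrays (1.27 ± 0.10, limma adjusted p = 7.14e-05). Dll1 was thus the gene of this list that changed most, and its groups were far apart. The growth factor receptor genes Fgfr1 (0.70 ± 0.10, adjusted p = 0.00191) and Fgfr2 (0.35 ± 0.09, adjusted p = 0.0438, but 0.0691 over all probe sets) and the Hedgehog effector Gli2 (0.55 ± 0.12, adjusted p = 0.0236) also rose. Neither other Fgfr1 set was called, Fgfr2 had a set at -0.09, and the other Gli2 set was not called. Gli2 kept its call only without wildtype replicate 3 when arrays were dropped in turn (adjusted p up to 0.113 in the other 5 fits). Fgfr2 lost its call in the same 5 fits (adjusted p up to 0.139). The cyclin gene Ccnd2 fell by 0.47 ± 0.10 (adjusted p = 0.022), and of its 6 other sets 4 were called lower. Ccnd2 missed the threshold without wildtype replicate 2 or any 1 transgenic array (adjusted p up to 0.0916). Hes5, the Notch effector best known as a Bcl6 target in the cortex, was not called (6.47, 6.64 and 6.34 against 6.73, 6.73 and 6.42), nor was Hes1.

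Lymphocyte targets of Bcl6 gave 3 falls among 9 measured genes (33.3% called, against 7.71% of all genes and 11.9% of bright ones) and 0 rises. The cytokine signalling inhibitor Socs2 was 2.84-fold lower, at 7.88, 7.72 and 7.31 in wildtype and 6.25, 6.22 and 5.91 in transgenic arrays (-1.50 ± 0.15, limma adjusted p = 0.000239). The helix-loop-helix inhibitor Id2 was 2.40-fold lower, at 10.51, 10.55 and 10.34 against 9.34, 9.41 and 8.87 (-1.26 ± 0.14, adjusted p = 0.000436), and each of its other sets was called lower too. For Socs2, 2 of 5 other sets were called, both lower. The cell cycle inhibitor Cdkn1a fell by 0.43 ± 0.09 (adjusted p = 0.0207), but its other set was at -0.0017 and its call was lost unless the array dropped was D6/Zbtb20S replicate 1 (adjusted p up to 0.0756 in the other 5 fits). Prdm1, the plasma cell factor that Bcl6 silences in B cells, lay under the array median on every array (0.23 ± 0.11, not called).

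Id2 is also among the genes that Zbtb18 is known to repress, of which 10 were measured. Of these, 1 rose and 2 fell (30% called, against 7.71% of all genes and 11.9% of bright ones). The proneural gene Neurog2 was 1.83-fold higher (0.87 ± 0.16, limma adjusted p = 0.0095), and Eomes, the factor of intermediate progenitors, was 2.16-fold lower (-1.11 ± 0.21, adjusted p = 0.0117). Neurog2 read 4.16, 3.66 and 4.39 in wildtype and 5.03, 4.91 and 4.87 in transgenic arrays, with groups apart. Eomes read 5.28, 4.84 and 5.68 against 4.53, 4.06 and 3.88. The other Eomes set was at -0.40 ± 0.14 and was not called (limma adjusted p = 0.173 over all probe sets). Neurog2 lost its call without D6/Zbtb20S replicate 1 and Eomes without D6/Zbtb20S replicate 3. Zbtb18 itself was not called, as given above.

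Transcription factors that carry a BTB domain under other names gave 1 rise and 2 falls among 7 genes. That is 42.9% called, against 7.71% of all genes and 11.9% of bright ones. Bach1 and Bach2, which join the BTB domain to a leucine zipper, went opposite ways. Bach1 rose from 7.88, 7.82 and 7.94 to 8.50, 8.51 and 8.25 (0.54 ± 0.09, limma adjusted p = 0.00683), and its other set was called higher as well. Bach2 fell from 8.45, 8.74 and 8.53 to 7.67, 7.86 and 7.51 (-0.89 ± 0.11, adjusted p = 0.00099), and 1 of its 2 other sets was called lower. Both kept their call whichever array was left out. Nacc1 fell by 0.32 ± 0.08 (adjusted p = 0.0468, but 0.0709 over all probe sets), with its other sets at -0.04 and 0.00300, and kept its call only without wildtype replicate 3 when arrays were dropped in turn (adjusted p up to 0.199). The zinc finger members of this group, Mynn, Gzf1 and Zfp131, were not called.

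**Figure D4:**
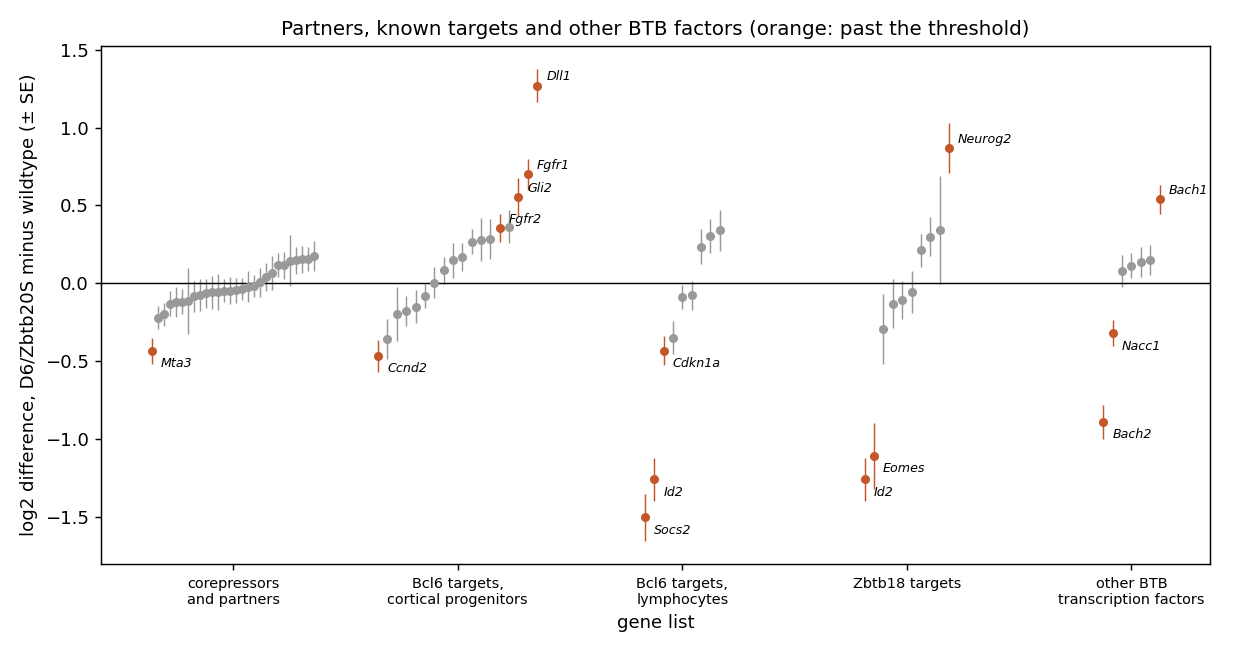
Log2 difference between D6/Zbtb20S and wildtype (vertical axis, ± standard error of the limma fit, n = 3 and 3 arrays) for the genes of 5 lists (horizontal axis), each point a gene, in rising order within its list. Orange points passed the adjusted p threshold and carry their symbol: 1 of 28 corepressor and partner genes did, 5 of 18 and 3 of 9 Bcl6 targets, 3 of 10 Zbtb18 targets and 3 of 7 other BTB factors.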

How the data were processed

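The deposited table held 1 log2 signal per probe set and array, and the submitters' processing notes name RMA (background correction, normalization between arrays and probe set summary) and limma, with no version or order. The log2 scale was read from the range of the values, and array medians of 3.83 to 3.97 leave the last scaling and any centring unknown. Of 45101 probe sets, 64 controls were left out. Gene names came from the platform annotation, and all 44 members matched a GRCm38.p6 gene by gene ID. A symbol with several probe sets took the set with the highest mean.

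Differences (D6/Zbtb20S minus wildtype) were fitted over all 18193 genes, and separately over all 45037 probe sets, with lmFit and eBayes of limma 3.58.1 (R 4.3.3), without covariates and with Benjamini-Hochberg adjustment over all of them. Every adjusted p is from limma over genes unless probe sets or another test are named. The fit was also run on simulated data with independent normal noise for each gene and array. Such data hold no deviation shared by the genes of an array, so they cannot check the calls for one. Figures used matplotlib 3.10.9. Alternatives were a replicate block, each array left out, quantile normalization, equal medians, weights for arrays, a trend of the prior on intensity, only bright probe sets (above the array median on at least 3 arrays), the mean of probe sets, and an ordinary linear model. Leaving wildtype replicate 3 out of the probe set fit was added after the data were seen.

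The members and the gene lists were chosen with earlier results of these data known, and the target lists are from general knowledge and incomplete. Values on every array are given for Zbtb20, the called members and the neural group, and the called genes of each list are named. Members given per array beyond that rule, near the threshold or apart between groups, were chosen after their values were seen, as were Bcor, Hdac3, Sirt1, Hes5, Hes1 and Prdm1. The number of arrays limits the precision.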

Additional observations from a re-analysis of the deposited data

How the results depend on the processing

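Bcl6 was higher and called in 13 of 14 alternatives (differences from 1.65 to 2.98), Zbtb38 in 12 and Zbtb10 was lower and called in 4. None of the 14 turned the sign of a called member. Members called higher were 2, and numbered 5 with array weights, 4 over bright probe sets, 1 with the mean of probe sets and 0 with the ordinary linear model. Members called lower were 1, and numbered 2 with quantile normalization, array weights and bright probe sets, and 0 with equal array medians and with the ordinary linear model. All genes called were 1402, and numbered 2707 with array weights, 267 with the ordinary linear model and 777 to 1538 with an array left out (fewest without wildtype replicate 2, and 837 without D6/Zbtb20S replicate 1). With an array left out, 2 members were called higher each time and 0 to 1 lower, the latter being Zbtb22 without wildtype replicate 3. The replicate block gave 1343 genes, 2 members higher and 0 lower, and besides Zbtb10 it ended the calls of Fgfr2 and Nacc1. Same-numbered arrays deviated from their group means with correlations of -0.215, 0.175 and -0.00814. Between differently numbered arrays the correlations ran from -0.224 to 0.225. So few arrays cannot settle whether same-numbered samples share more than a number.

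Signs turned for 17 of the 41 uncalled members, all with differences of at most 0.14 in size. With equal array medians Hic2 was at -0.014 and Zbtb17 at -0.0038. With quantile normalization Bcl6b was at -0.0023, Hic2 at -0.036, Patz1 at -0.0071, Zbtb17 at -0.026 and Zbtb18 at 0.037. With array weights Zbtb11 was at 0.0056, Zbtb20 at 0.12 and Zbtb49 at 0.0025. With the mean of probe sets Zbtb17 was at -0.0082, Zbtb20 at 0.40 and Zbtb7a at 0.25. With an array left out the ranges were -0.091 to 0.092 for Hic2, -0.031 to 0.080 for Patz1, -0.081 to 0.071 for Zbtb11, -0.065 to 0.13 for Zbtb14, -0.065 to 0.11 for Zbtb17, -0.10 to 0.048 for Zbtb18, -0.36 to 0.18 for Zbtb20, -0.13 to 0.013 for Zbtb26, -0.057 to 0.18 for Zbtb3, -0.013 to 0.17 for Zbtb45, -0.026 to 0.16 for Zbtb48, -0.080 to 0.12 for Zbtb49, -0.11 to 0.022 for Zbtb7a, -0.054 to 0.043 for Zbtb7b, -0.15 to 0.081 for Zbtb8a and -0.14 to 0.062 for Zbtb8b. Without wildtype replicate 3 the Zbtb20 sets 1437598_at, 1439128_at and 1443471_at turned to 0.18, 0.11 and 0.29. The causes were not tested. Signal under the array median limits what the 5 dim members can show.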

Other observations

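Markers of other cells and of the tissue moved in these arrays too, and the counts stand beside the BTB results. Over all genes, 4.06% were called higher and 3.64% lower. Of 4 called glutamatergic genes out of 6, 2 were higher (Neurod2 and Camk2a) and 2 lower (Slc17a6 and Tbr1). Of 8 CA1 genes, 2 were higher (Nectin3 and Man1a) and 1 lower (Satb1). That list includes Zbtb20, itself a member and the gene of the transgene, which was not called. Of 8 oligodendrocyte genes 4 were lower, of 10 GABAergic genes 2 were lower, of 10 radial glia and astrocyte genes 2 were lower and of 8 endothelial and mural genes 1 was lower, with 0 higher in each. Of 6 intermediate progenitor genes 1 was higher (Neurog2) and 1 lower (Eomes), and of 3 measured erythroid genes 0 were called by limma. Erythroid markers lay under the array median on at least 5 arrays.

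Another probe set carries the Zbtb38 symbol together with that of a second transcript, E030011O05Rik, and was kept out of the family by the rule. It read 3.28, 3.40 and 3.38 in wildtype and 3.22, 3.31 and 3.40 in transgenic arrays, all under the array median, with overlapping groups (-0.05 ± 0.08, limma adjusted p = 0.823 over all probe sets).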
